A study of Mus musculus with 4 samples.

Results

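This account covers 89 accessible regions whose ATAC-seq peaks ranked higher in both control libraries than in both mutant libraries of sorted palatal mesenchyme. ATAC-seq marks open chromatin by letting a transposase insert adapters into accessible DNA, and a peak is a stretch where insertions pile up. The mutant cells were Shox2Cre/-;Nkx2.5F/F;R26RmTmG (2 libraries) and the control cells were Shox2Cre/+;Nkx2.5F/F;R26RmTmG (2 libraries), all from mouse embryos at stage E14.5, with 50000 sorted cells pooled for each group. Cre stood at the Shox2 locus, so the controls kept 1 intact Shox2 allele and the mutants had none, and GFP from the R26RmTmG reporter marked cells in which Cre had acted. All 4 libraries carried floxed Nkx2-5 alleles that Cre can remove, so neither group was wild type, and only cells of the Shox2 lineage were sampled. Whether both libraries of a genotype were made from 1 pool or from several is not stated in the labels, so the spread between them may be technical.

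Shox2 is a homeobox gene active in the mesenchyme of the anterior palate, where mice without it develop a cleft. Nkx2-5 is a homeobox factor best known from the heart, where it and Shox2 act against each other in the sinoatrial node. Chromatin at the starts of active genes is open in most cell types, while open stretches inside and between genes are often enhancers, whose use differs more between cell types.

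The members were chosen from the deposited ranks. Peaks of the 4 lists on chromosomes 1 to 19 and X were merged into 39843 regions where they shared at least 1 bp, and 18904 regions held a peak in all 4 libraries. Each peak was given the percentile of its deposited score among the peaks of its own library, so that a percentile near 100 marks the strongest peaks of that list. A member is a region of all 4 libraries in which the lower of the control percentiles exceeded the higher of the mutant percentiles by at least 10 points, a difference called the gap here and taken as control minus mutant. The 89 members were 0.471% of the shared regions. Their percentiles, and every other strength value of the same peaks, were fixed or shaped by this choice and are given as a description without a test.

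One library stood apart before any comparison. Mutants 1 and 2 had 29225 and 31832 peaks and control 1 had 30239, while control 2 had the shortest list, with 22966. The share of peaks in shared regions was 65.3% in mutant 1, 59.9% in mutant 2, 63.1% in control 1 and 83.0% in control 2. The median shared region stood at percentile 67.6 in mutant 1, 70.2 in mutant 2, 68.7 in control 1 and 58.8 in control 2. A member had to reach the gap on this lower scale of control 2, and ranks from lists of unequal length show no change in accessibility. Of 15 marker genes of palatal mesenchyme, 9 had at least 1 shared region assigned to them, and Shox2, Prrx2, Barx1, Tbx22 and Pdgfra were among the 6 with none.

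Promoter windows overlapped only some of the members, and a few are printed to show the DNA at the gene starts with large gaps, not the members as a whole. Gene positions and sequences are from RefSeq on GRCm38.p6, the assembly that mm10 names. The lines below give the windows, from 250 bases before to 50 bases after an annotated start, that overlapped the members with the largest gaps at gene ends, among those with a window, plus the window at Il1rapl1, picked after its motif count was seen. Capitals mark TAAT on either strand, the core that most homeodomain proteins bind.
Htr7, chr19:36057311-36057610, minus strand: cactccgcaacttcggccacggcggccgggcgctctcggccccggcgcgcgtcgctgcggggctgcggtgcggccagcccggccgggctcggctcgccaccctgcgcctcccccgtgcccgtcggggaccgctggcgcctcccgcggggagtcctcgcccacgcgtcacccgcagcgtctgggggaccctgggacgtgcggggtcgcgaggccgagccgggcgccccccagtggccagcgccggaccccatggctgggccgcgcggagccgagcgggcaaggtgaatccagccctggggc
Nrarp, chr2:25180508-25180807, plus strand: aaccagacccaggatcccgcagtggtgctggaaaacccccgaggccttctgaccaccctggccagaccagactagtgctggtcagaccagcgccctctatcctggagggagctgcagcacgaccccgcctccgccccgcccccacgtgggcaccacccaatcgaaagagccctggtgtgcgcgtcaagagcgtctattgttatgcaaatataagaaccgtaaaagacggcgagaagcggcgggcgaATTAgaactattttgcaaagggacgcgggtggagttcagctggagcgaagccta
Peli2, chr14:48120619-48120918, plus strand: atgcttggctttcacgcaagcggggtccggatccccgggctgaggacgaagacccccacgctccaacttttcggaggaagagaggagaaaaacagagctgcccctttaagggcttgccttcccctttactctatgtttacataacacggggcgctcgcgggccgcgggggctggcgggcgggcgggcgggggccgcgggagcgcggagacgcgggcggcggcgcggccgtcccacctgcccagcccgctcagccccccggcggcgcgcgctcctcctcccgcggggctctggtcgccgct
Deaf1, chr7:141338734-141339033, minus strand: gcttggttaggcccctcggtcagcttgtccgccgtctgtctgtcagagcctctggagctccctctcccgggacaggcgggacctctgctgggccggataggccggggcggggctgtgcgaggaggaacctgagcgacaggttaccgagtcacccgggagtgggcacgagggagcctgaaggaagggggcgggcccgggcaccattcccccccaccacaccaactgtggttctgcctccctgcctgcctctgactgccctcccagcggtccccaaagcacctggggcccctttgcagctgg
Akr1e1, chr13:4609115-4609414, minus strand: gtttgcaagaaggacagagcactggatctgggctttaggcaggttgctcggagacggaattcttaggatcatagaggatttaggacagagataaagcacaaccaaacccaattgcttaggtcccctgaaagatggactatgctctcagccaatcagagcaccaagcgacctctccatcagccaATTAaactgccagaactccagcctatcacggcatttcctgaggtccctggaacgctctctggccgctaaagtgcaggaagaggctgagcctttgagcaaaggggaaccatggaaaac
Il1rapl1, chrX:88115899-88116198, minus strand: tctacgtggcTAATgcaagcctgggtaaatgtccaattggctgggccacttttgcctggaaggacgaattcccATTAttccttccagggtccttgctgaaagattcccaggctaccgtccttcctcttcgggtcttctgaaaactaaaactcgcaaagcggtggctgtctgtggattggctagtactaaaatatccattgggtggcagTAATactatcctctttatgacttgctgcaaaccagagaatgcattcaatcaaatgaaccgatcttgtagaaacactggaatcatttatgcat
The Htr7 window had a GC content of 81% with 46 CpG dinucleotides and no TAAT core. Nrarp and Akr1e1 each held the core once, and Il1rapl1, at a GC content of 45%, held it 3 times. The Deaf1 window overlapped that of Eps8l2 on the opposite strand, so a single member covered the starts of both genes.

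The members stood in the lower and middle part of the lists. Their percentiles in mutant 1 ran from 0.655 to 62.0 with a median of 25.1, and in mutant 2 from 2.78 to 67.7 with a median of 28.5. In control 1 they ran from 18.5 to 84.9 with a median of 49.8, and in control 2 from 14.3 to 79.7 with a median of 46.2. The gap had a median of 13.7 points and reached 27.2, with 31 members at 15 points or more and 10 at 20 or more. Just inside the threshold were regions at Atp8a2, Armc2 and Lpcat3, each with a gap of 10.1 points. Just outside it were regions at Prkag2 with 9.87 and Rab42 with 9.84 points.

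**Figure D1:**
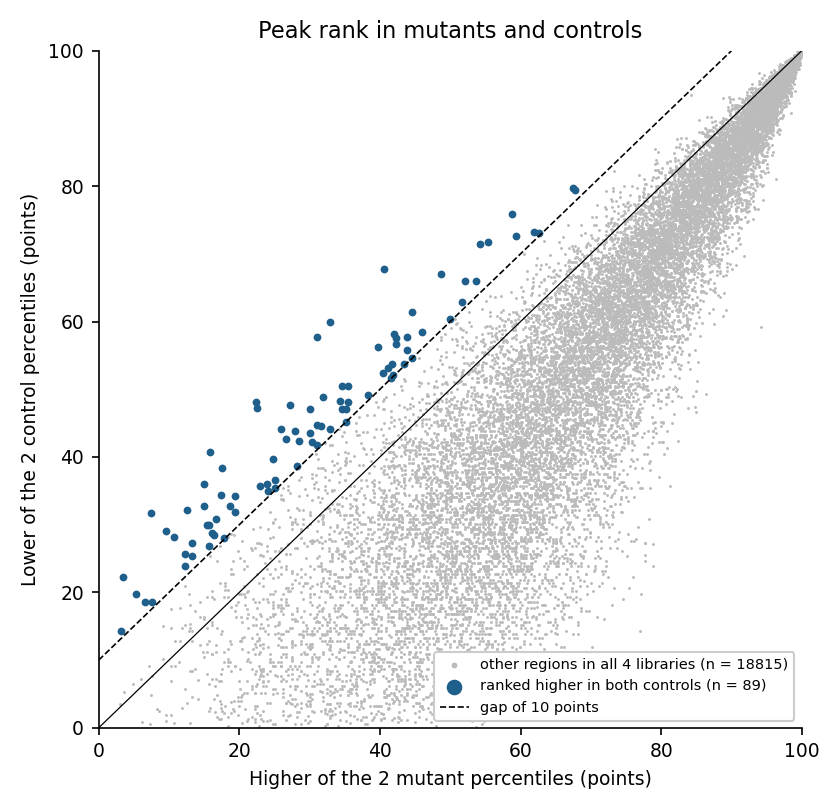
Each point is 1 of the 18904 regions found in all 4 libraries, placed by the higher of its mutant percentiles (horizontal) and the lower of its control percentiles (vertical). The 89 members, in blue, lie on or above the dashed line of a 10 point gap, and none has a mean percentile of 80 or more over the 4 libraries; most grey points lie below the diagonal.

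At gene ends, meaning at most 1 kb from the first or last base of a protein-coding gene, lay 17 members. The largest gap of all members was at Htr7, which encodes a serotonin receptor (mm10, chromosome 19, 36056875 to 36057927). This region stood at percentiles 33.3 and 40.7 in mutants 1 and 2, against 67.8 and 70.6 in controls 1 and 2. Its deposited fold enrichment was 5.79 and 6.38 in the mutants, against 9.62 and 10.8 in the controls, and the ratio of the mutant mean to the control mean was 0.597, the lowest among members.

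Nrarp encodes a small ankyrin repeat protein that Notch signalling induces and that limits Notch activity. The region at its start (chromosome 2, 25180289 to 25181371) stood at percentiles 33.0 and 26.3 in mutants 1 and 2, against 62.1 and 59.9 in controls 1 and 2. The gap, which the choice of members required to be large, was 26.9 points. Fold enrichments there were 4.2 and 4.1 in the mutants, against 6.15 and 6.43 in the controls.

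Peli2 encodes a Pellino ubiquitin ligase of innate immune signalling. Its member (chromosome 14, 48120535 to 48122404) was the widest of all 89, at 1870 bp, and stood at percentiles 29.1 and 31.1 in mutants 1 and 2, against 65.8 and 57.8 in controls 1 and 2. A region 15.9 kb outside Peli2 (chromosome 14, 48297113 to 48297825) was ordered the other way. It stood at 65.9 and 55.3 in the mutants against 46.8 and 43.3 in the controls.

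Deaf1 encodes a DNA-binding transcription factor. The region over the starts of Deaf1 and Eps8l2 (chromosome 7, 141338464 to 141339314) stood at 17.6 and 8.90 in mutants 1 and 2, against 48.5 and 38.3 in controls 1 and 2. Akr1e1 encodes an aldo-keto reductase, and its region (chromosome 13, 4608709 to 4609527) was among the stronger members, at 48.7 and 46.5 in the mutants against 78.3 and 67.0 in the controls. Another 11 members at gene ends lay at Utp25, Anks6, Flywch2, Ppp6r2, Trex1, 1700028P14Rik, Vps37b, Smtnl1, Il1rapl1, Caskin1 and Atp8a2, with gaps from 10.1 to 16.9 points. Anks6, a gene of primary cilia, and Trex1, a DNA exonuclease gene, stood highest in this group. The Anks6 region was at 55.2 and 55.3 in the mutants against 73.2 and 71.8 in the controls, and the Trex1 region at 56.0 and 59.3 in the mutants against 72.7 and 75.3 in the controls.

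**Figure D2:**
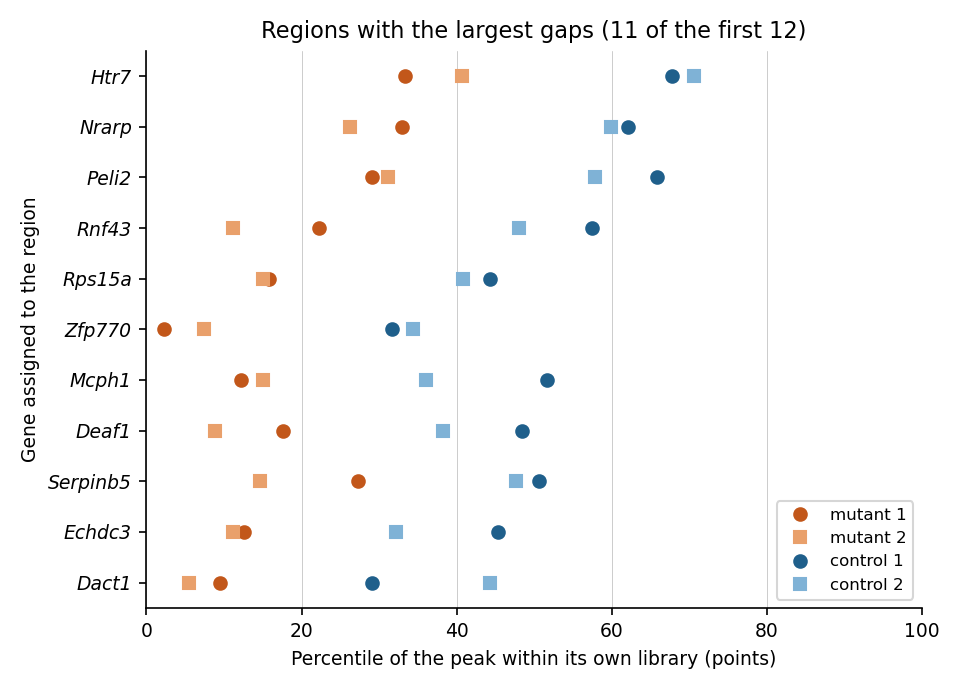
Percentile of the peak within its own library (horizontal) for 11 of the 12 members with the largest gap, with mutant libraries in orange and control libraries in blue. Each row is labelled by the gene the region lies in or nearest to, which for Dact1 is beyond the limit for assignment. At each of these 11 the blue symbols lie to the right of the orange symbols, which the choice of members fixes, and the spread within a genotype differs from region to region, being small at Rps15a and wide at Dact1.

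Inside genes, away from their ends, lay 33 members. The gene table gives no exons, so exonic and intronic positions were not told apart. Rnf43 encodes a ubiquitin ligase that removes Frizzled receptors from the cell surface and so dampens WNT signalling. Its member (chromosome 11, 87689298 to 87690343) stood at 22.3 and 11.2 in mutants 1 and 2, against 57.5 and 48.1 in controls 1 and 2. Mcph1, a gene of chromosome condensation and DNA repair, held a member (chromosome 8, 18782420 to 18783407) at 12.2 and 15 in the mutants, against 51.6 and 36.0 in the controls.

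Several other members inside genes lay in genes with known roles in craniofacial tissue or matrix, and these were picked after their values were seen. Mid1, mutated in a human midline syndrome that includes clefts, held a member (chromosome X, 169986691 to 169987704) at 21.1 and 26 in the mutants, against 56.4 and 44.1 in the controls. A region 3.39 kb outside Mid1 (chromosome X, 169993333 to 169995040) was ordered the other way. It stood at 81.8 and 79.1 in the mutants against 71.9 and 67.4 in the controls. Fat4, a large cadherin of planar cell polarity, held a weak one (chromosome 3, 38927944 to 38929425) at 6.59 and 3.41 in the mutants, against 18.5 and 25.4 in the controls. The collagen genes Col15a1 and Col27a1 held 1 member each. The Col27a1 region (chromosome 4, 63302363 to 63303102) was at 5.29 and 4.38 in the mutants against 19.7 and 37.1 in the controls. Another region inside Col27a1 (chromosome 4, 63296385 to 63297395) was ordered the other way, at 29.8 and 33.9 in the mutants against 8.36 and 11.3 in the controls. The Col15a1 region (chromosome 4, 47227638 to 47228311) was at 16.5 and 31.1 in the mutants against 61.0 and 44.8 in the controls, while a further shared region at a Col15a1 end was not a member, at 40.1 and 44.8 in the mutants against 42.9 and 4.54 in the controls.

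Slc25a21, a mitochondrial carrier gene, neighbours Pax9, a paired box gene that the palate needs. A member inside it (chromosome 12, 56792086 to 56793090) had its nearest gene end at Pax9, 79.8 kb away, and was one of the strongest members, at 57.7 and 67.7 in mutants 1 and 2 against 81.7 and 79.4 in controls 1 and 2. A region inside the same gene nearer to Pax9 (chromosome 12, 56717996 to 56719090) was ordered the other way, at 61.8 and 70.0 in the mutants against 43.8 and 32.5 in the controls. The region inside Pax9 itself stood at 86.9 and 90.3 in the mutants and 86.7 and 87.3 in the controls, where the genotypes overlapped. The regions of this locus were ordered in both directions.

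Outside genes were 39 members, 34 of them within 100 kb of a protein-coding gene and 5 farther away. Over all 41 members whose midpoint lay outside a gene body, 2 of which were at a gene end, the distance to the gene had a median of 21.3 kb. The largest gap here, 25 points, was 78.1 kb from Rps15a, a ribosomal protein gene (chromosome 7, 118025828 to 118026774), with 15.8 and 15 in mutants 1 and 2 against 44.3 and 40.8 in controls 1 and 2. The region 59.2 kb from Zfp770, a zinc finger gene (chromosome 2, 114260300 to 114260936), lay near the bottom of the mutant lists, at 2.22 and 7.42 in the mutants against 31.7 and 34.4 in the controls. Regions near Serpinb5, a serpin gene of epithelial cells, and Echdc3, a gene of lipid metabolism, had gaps of 20.4 and 19.6 points. Dact1, which encodes an inhibitor of WNT signalling that binds Dishevelled, was the nearest gene to a member 151 kb away (chromosome 12, 71470945 to 71471906), beyond the limit for assignment, at 9.52 and 5.52 in the mutants against 29.1 and 44.3 in the controls.

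The strongest members by lower control percentile were a mixed set. The top of it was a region 61.4 kb from Gm15319, a predicted gene (chromosome 8, 20424134 to 20425111), at 58.8 and 67.4 in the mutants against 84.9 and 79.7 in the controls. It also had the highest fold enrichments of any member, 10.4 and 12.2 in the mutants against 20.1 and 16.8 in the controls. Next came the Slc25a21 region, and then a region 3.24 kb from 1810024B03Rik (chromosome 2, 127182645 to 127183437), at 53.9 and 58.8 in the mutants against 81 and 75.9 in the controls. A region 37.8 kb from Rad21, a cohesin subunit gene (chromosome 15, 51924273 to 51925343), stood at 62.0 and 55.5 in the mutants against 74.3 and 73.3 in the controls. Inside Tceanc (chromosome X, 166504106 to 166505076) the values were 59.7 and 62.6 in the mutants against 74.1 and 73.1 in the controls.

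Deposited fold enrichment, a value the rule did not rank by but which belongs to the same peaks, was ordered the same way at every member. In all 89 members both control values exceeded both mutant values, where 14.3% of all shared regions had both controls above both mutants and 15.3% had both mutants above both controls. Median fold enrichments of the members were 5.09 and 5.47 in mutants 1 and 2, against 7.19 and 7.24 in controls 1 and 2. The ratio of the mutant mean to the control mean ran from 0.597 at Htr7 to 0.886 near Gli3, with a median of 0.738, and the median over all shared regions was 1. No label says which background the enrichment is relative to, and read depth is unknown.

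**Figure D3:**
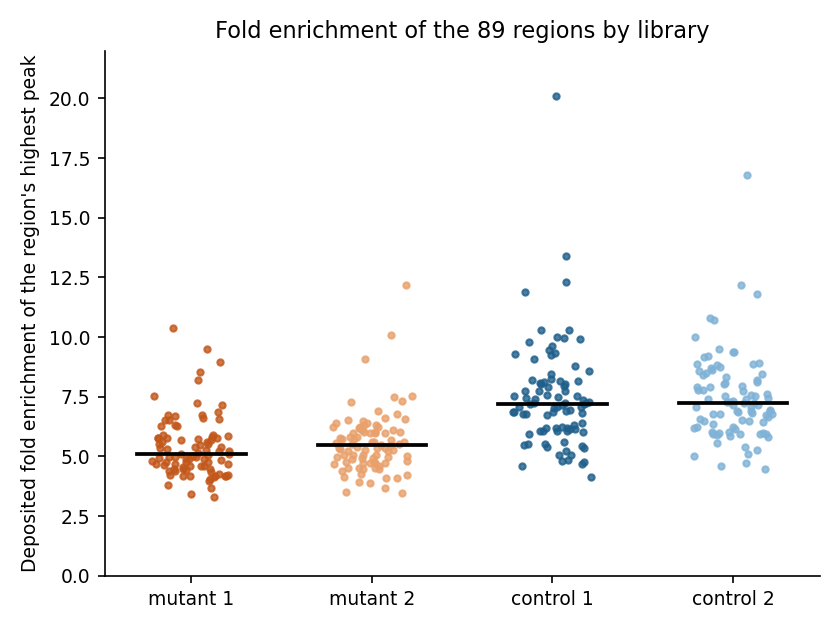
Deposited fold enrichment of the highest peak in each of the 89 members, by library, with 1 point per member, points spread sideways for visibility and the median as a black bar. The medians are 5.09 and 5.47 in the mutant libraries and 7.19 and 7.24 in the control libraries, and the highest point in each library is the region near Gm15319.

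The share of members at gene ends was below that of all shared regions, by an amount that depended on the setting. Of the 89 members 19.1% were within 1 kb of a gene end, 37.1% inside genes, 38.2% outside genes within 100 kb and 5.62% beyond that. Over all shared regions these shares were 50.9%, 25.3%, 16.5% and 7.28%. The regions ranked higher in both mutants, 797 in number or 4.22% of shared regions, had 21.1% at gene ends, 34.6% inside, 24.8% outside within 100 kb and 19.4% beyond. The members' share at gene ends was 37.5% with equal peak numbers, against 54.1% of the shared regions there, and 38.5% with percentiles over shared peaks, against 50.9%. Among peaks of the upper 50% per library the share was 55.3%, against 67.8%. At a gap of 20 points, which left 10 members, it was 50%, close to the 50.9% of all shared regions. Classes formed by the other pairings of the libraries had 23.1% to 32.5% at gene ends. No test was made of these shares, since regions of a genome are not replicates.

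Strength differed with position. Among shared regions with a mean percentile of 20 to 40 over the 4 libraries, 19.5% of the 41 members and 21% of all shared regions were at gene ends. From 40 to 60 points the shares were 20.7% of 29 members and 33.1% of all, and from 60 to 80 points 33.3% of 9 members and 56.0% of all. Below 20 points 0 of 10 members were at a gene end, against 14.2% of all. Above 80 points there were 5528 shared regions and 0 members, and 79.0% of those regions were at gene ends. Members were narrower than shared regions, with a median width of 989 bp against 1164 bp, and so were the regions ranked higher in both mutants, at 1040 bp. Each member held exactly 1 peak in every library, as did 97.7% of shared regions.

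**Figure D4:**
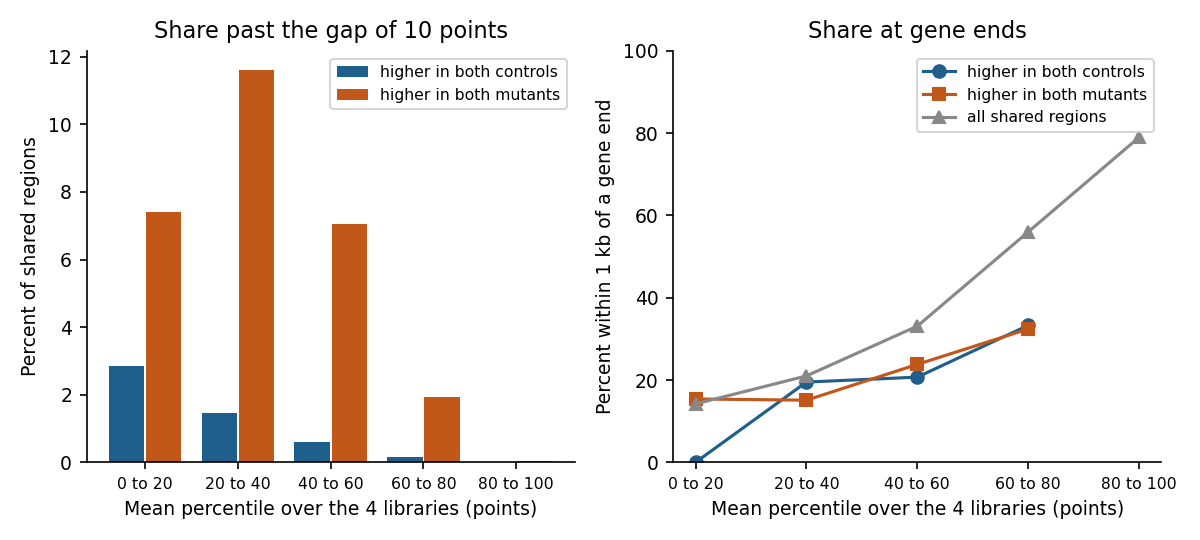
Left, the percent of shared regions past the 10 point gap in each direction, by mean percentile over the 4 libraries; right, the percent within 1 kb of a gene end for the members (blue), for regions higher in both mutants (orange, drawn up to 80 points) and for all shared regions (grey). Members made up 2.85% of the shared regions below 20 points and 0.166% from 60 to 80 points, while the share at gene ends among all shared regions was 14.2% in the lowest bin and 79.0% in the highest.

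Genes of palate development and signalling were looked at through gene lists. The 84 members within 100 kb of a gene or inside it were assigned to 84 different genes, so no gene gathered several. The 29 gene lists held 472 distinct genes with 765 shared regions, of which 4 were members (0.523%, against 0.471% of all shared regions) and 35 were ranked higher in both mutants (4.58%, against 4.22%). Both shares were near those of all shared regions. In 25 lists there was no member, among them the palate mesenchyme transcription factors (0 of 47 shared regions), the TALE homeobox genes (0 of 20), the BMP (0 of 36), TGF-beta (0 of 38), FGF (0 of 33) and WNT (0 of 59) pathways, the collagen and matrix genes (0 of 68), the osteogenic (0 of 16) and chondrogenic (0 of 22) genes and the heart and sinoatrial genes (0 of 18). At a background of 0.471%, lists of this size hold few members or none, so an empty list says little. The lists are not complete. For example, Rnf43 and Dact1 are not in the WNT list, and Nrarp is not in the Notch list. Col15a1 and Col27a1 are not in the collagen and matrix list. The members at these genes are not counted here, and the Dact1 member, beyond 100 kb, would not be counted even with Dact1 listed.

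The 4 members at listed genes were at Gli3, Maml2, Ephb1 and Spi1, and each had a gap under 10 points in at least 1 other setting. Ranked by enrichment, the gap was 4.98 points at Gli3, 8.03 at Spi1, 19.2 at Maml2 and 21.2 at Ephb1. With percentiles over shared peaks it was 7.69 at Maml2, 6.86 at Ephb1, 5.26 at Spi1 and 11.8 at Gli3. With equal peak numbers it was 22.5 at Gli3, while Maml2, Ephb1 and Spi1 had no region in all 4 lists. Gli3 encodes the main repressor among the transcription factors of hedgehog signalling, which drives growth of the palatal shelves. Its member, 12.1 kb outside the gene (chromosome 13, 15741650 to 15742509), stood at 24.4 and 28.5 in mutants 1 and 2, against 44.0 and 42.4 in controls 1 and 2. The region at a Gli3 end was among the strong peaks of every library, at 89.6 and 88.0 in the mutants and 90.1 and 81.0 in the controls, and a region inside Gli3 was ordered the other way, at 74.1 and 69.3 in the mutants against 51.3 and 56.5 in the controls.

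Maml2 encodes a coactivator of Notch target genes. Its member inside the gene (chromosome 9, 13483912 to 13484829) stood at 24.8 and 20.8 in the mutants, against 39.7 and 49.9 in the controls, while 7 other shared regions of the gene were not members. Ephb1 encodes a receptor for ephrins that guides cell sorting and axons, and its member lay 49.0 kb outside (chromosome 9, 102403363 to 102404107), at 6.59 and 19.4 in the mutants against 34.2 and 39.4 in the controls. Another region near Ephb1 (chromosome 9, 102423786 to 102424926) was ordered the other way, at 43.4 and 45.5 in the mutants against 15.4 and 31.9 in the controls. The genes in or nearest to the 89 members had 166 other shared regions. Of these, 12 ranked higher in both mutants by at least 10 points, at the genes of 10 members. The share of all shared regions that did so was 4.22%. Spi1 encodes PU.1, a defining factor of myeloid and B cells rather than of mesenchyme. Its member lay 3.78 kb outside (chromosome 2, 91077994 to 91079191), at 6.92 and 15.7 in the mutants against 29.9 and 40.2 in the controls.

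Markers of other cell types were looked at beside this. Of the 5 blood and immune markers 3 had a shared region, 4 regions in all, while Csf1r and Gata1 had none. Among those 4 regions 1 was a member and 1 was ranked higher in both mutants by at least 10 points. The neuron, Schwann and glial, skeletal muscle, endothelial, epithelial, and pericyte and smooth muscle markers had 0 members. Whether blood cells differed between the sorted pools was not tested. In bulk cells, fewer cells with an open site and less opening per cell cannot be told apart.

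Regions around the members were ordered about as often each way as shared regions in general. Within 100 kb of a member lay 246 other shared regions, next to 82 of the 89 members. Both controls stood above both mutants in 5.28% of these neighbours, against 5.62% of all shared regions, and both mutants above both controls in 30.5%, against 29.1%. Of the neighbours 0 were members, where the share over all shared regions was 0.471%, and 13 (5.28%, against 4.22%) passed the 10 point gap in the mutant direction. Of the 72 members away from gene ends, 39 had genes with a shared region at their own end. Those 41 end regions had a median mean percentile of 74.8, against 35.0 for the 72 members, and both controls stood above both mutants at 0 of them and both mutants above both controls at 13, where the shares over all shared regions were 5.62% and 29.1%. At Zfp770, for example, the end region stood at 59.7 and 66.6 in the mutants and 69.4 and 48.3 in the controls, so the genotypes overlapped where the distal member did not.

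At the loci named in the genotypes there was no member. Shox2 had no region in all 4 libraries assigned to it. A shared region inside Rsrc1 (chromosome 3, 66985439 to 66986334) had its nearest gene end at Shox2. This region stood at 79.7 and 77.9 in the mutants and 80.2 and 74.5 in the controls, where the genotypes overlapped. The region at an Nkx2-5 end (chromosome 17, 26838593 to 26840423) was ordered against the members, at 60.5 and 60.5 in the mutants and 25.6 and 35.4 in the controls. By chromosome the members made up between 0.189% of shared regions on chromosome 6 and 0.820% on chromosome 19, with 3 members on chromosome 3, which carries Shox2, and 4 on X.

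Promoter windows overlapped 18 of the 85 members off chromosome 18 (21.2%), against 50.7% of shared regions and 21.3% of regions ranked higher in both mutants. These 18 members held 25 windows, some of them alternative starts of 1 gene that overlap. Their median GC content was 55.3%, against 62.3% over the 12509 windows of shared regions, and their median number of CpG dinucleotides was 10 against 22. TAAT was found on either strand in 44% of the 25 windows, 37.9% of windows in shared regions and 58.0% of all 32851 windows. The longer homeodomain letters TAATTA were in 0 of 25, 2.08% and 5.29%. The NKX2 core AAGTG was in 52%, 40.5% and 46.4%, the E-box CANNTG in 80%, 61.0% and 72.3%, and the GC box GGGCGG in 48%, 68.6% and 35.7%. The RUNX letters TGTGGT were in 36%, 11.1% and 16.8%, and the SOX letters ACAAAG in 36%, 11.8% and 18.7%. Both shares count several windows of Gm38523, and the RUNX share counts the overlapping windows of Deaf1 and Eps8l2. The GATA letters AGATAA were in 16%, 4.92% and 11.2%, and this share counts overlapping windows of Utp25. The FOX letters TAAACA were also in 16% of the members' windows, a higher share than in shared regions or in all windows. Each of these 2 motifs was found in only 4 of the 25 windows. In total 18 motifs were counted, and some others were lower or similar in the members. The TALE letters TGACAG were in 8%, 15.7% and 19.2%, and the TEAD letters GGAATG in 12%, 11.2% and 14.7%. Windows of the same gene share sequence, so these shares rest on fewer than 25 independent stretches, and a match is a description of letters only.

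The number of members was read beside the same count for every other way of pairing the libraries. By genotype there were 89 regions with both controls above both mutants and 797 with both mutants above both controls. By replicate number there were 451 (2.39%) with both number 1 libraries above and 77 (0.407%) with both number 2 libraries above. In the crossed pairing there were 937 (4.96%) with control 1 and mutant 2 above and 39 (0.206%) in reverse. The smaller class of each pairing was the one with control 2 on the high side. Both directions together gave 886 regions for genotype, 528 by number and 976 crossed, a ratio of 0.908 for genotype to the highest other pairing. With 3 pairings no exact p below 0.333 can be had, and none was computed.

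The counts moved with the length of the lists. With an equal number of top-ranked peaks from every library there were 381 regions (2.21% of 17202 shared regions) higher in both controls and 376 higher in both mutants, and with percentiles taken over the shared peaks only there were 413 (2.18%) higher in both controls and 438 higher in both mutants. Over shared peaks the other pairings had 340 and 328 regions by number and 281 and 281 crossed. Same-genotype regions were 1.24 times the highest other pairing with equal peak numbers and 1.27 times over shared peaks. Ranked by enrichment, 237 regions (1.25%) were higher in both controls, 65 of the 89 members among them. All 89 members still had controls above mutants when percentiles were taken over the shared peaks, and 60 of them kept a gap of at least 10 points. With equal peak numbers 43 members kept it, and the other 46 were no longer found in all 4 shortened lists.

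**Figure D5:**
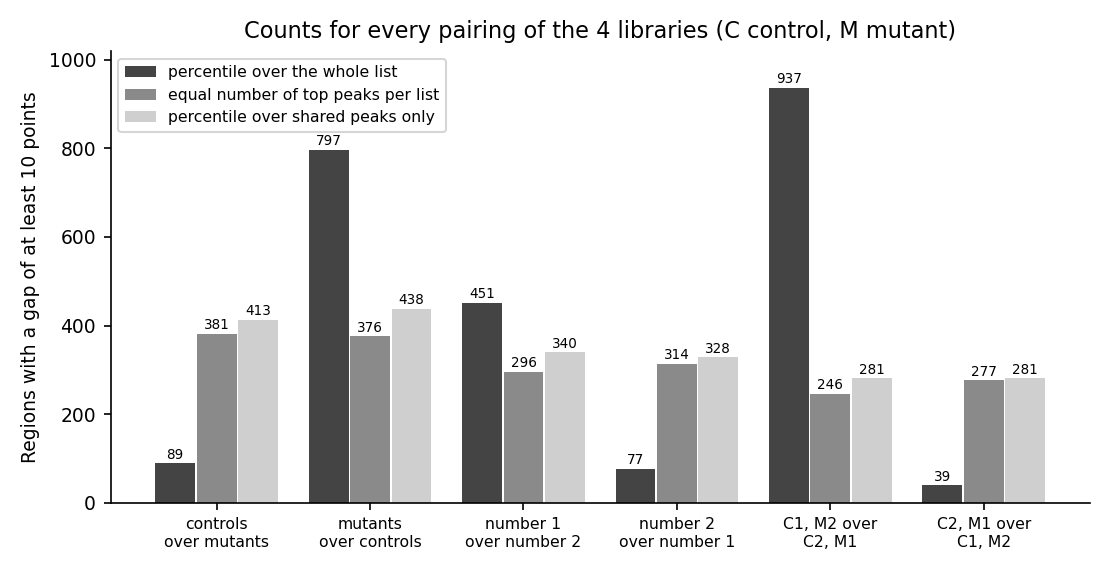
Number of regions with a gap of at least 10 points for both directions of the 3 library pairings, under percentiles over the whole lists, an equal number of top peaks per list, and percentiles over shared peaks only. Over whole lists the classes with control 2 on the high side hold 89, 77 and 39 regions against 797, 451 and 937, and over shared peaks the directions of each pairing are close, at 413 higher in controls and 438 higher in mutants for genotype.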

How the data were processed

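Peak lists of 2 mutant and 2 control ATAC-seq libraries were analysed, 1 list per library in 10 columns without a header. The submitters' processing notes name the build mm10. No source used here names the aligner, the peak caller, its settings or any shift of reads for the transposase. Peaks were ranked within a library by the deposited score, which equals 10 times the deposited −log10 p-value rounded down, apart from 2 peaks of mutant 1 and 3 of control 2. The deposited fold enrichment, read as such from its place in the layout, and the deposited −log10 q-value are the authors' values for single peaks. Peak numbers in the names ran to 96525 in control 2 and to 119417 in mutant 2, so the authors removed peaks after numbering by a step that is not given. With no read depth, values carry no counting error.

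Merging, ranking (ties averaged), assignment to the nearest of 21631 protein-coding genes by region midpoint and motif counts were done in Python 3.11.15 with numpy 2.4.6 and pandas 2.3.3. A gene end within 1 kb took precedence in assignment. The rule was run on simulated lists of equal length, so that run does not cover the shorter list of control 2. Members, gene lists and motifs were chosen with earlier results of these data known. The naming rule took Shox2 and Nkx2-5, the 12 largest gaps, the 6 highest lower control percentiles, the 6 largest gaps at gene ends, members at listed genes, and regions beside the threshold; a few items that this rule names are not reported here. Alternatives changed the gap, ranking column, list length, merging, chromosomes and libraries.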

Additional observations from a re-analysis of the deposited data

How the results depend on the processing

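The count of 89 moved with most settings. It was 234, 31 and 10 at gaps of 5, 15 and 20 points, 237 when ranked by enrichment, 381 with equal peak numbers, 413 with percentiles over shared peaks and 38 in the upper 50% of each list, where weak peaks are gone by construction. Leaving out a library eases the rule, and the count then ran from 212 without control 1 to 1218 without control 2, with 357 without mutant 1 and 630 without mutant 2. The share at gene ends, 19.1%, was 30.3%, 29.0% and 50% at gaps of 5, 15 and 20 points, 32.1% by enrichment, 37.5% with equal peak numbers, 38.5% over shared peaks, 55.3% in the upper 50%, and 21.7% to 29.0% with a library left out. The ratio of same-genotype to the highest other-pairing count, 0.908, was 1.05 and 1.02 at gaps of 15 and 20 points, 1.24 with equal peak numbers, 1.27 over shared peaks and 0.768 in the upper 50%. It was not compared with a library left out, where pairings hold unequal numbers of libraries, and the replicate block gives no other pairing. Requiring 100 shared bp, 1 peak per library or no chromosome 3 or X left 89, 89 and 82 members. Of the 23 named members, 18 kept a gap of 10 points by enrichment and 18 over shared peaks, and the other 5 stayed above 0 in each. With equal peak numbers 10 kept it and 13 had no value.

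A replicate block, which asks that control 1 exceed mutant 1 and control 2 exceed mutant 2 by 10 points each, gave 166 regions with 21.1% at gene ends. These were 0.878% of the 18904 shared regions, and the same rule in the mutant direction gave 1223 regions. Mutant 1 minus mutant 2 and control 1 minus control 2 had a correlation of −0.0316 over shared regions. This value cannot tell whether libraries of the same number were handled together, which the labels do not state and which was not tested. Unknown read depth limits every value.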
